A study of Mus musculus with 3 samples.

Results

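The platelet-derived growth factor (PDGF) family was followed in single cells of the mouse fracture callus through its 4 ligand genes, Pdgfa, Pdgfb, Pdgfc and Pdgfd, and its 2 receptor genes, Pdgfra and Pdgfrb. These are 6 of the 32285 genes in the deposited count matrices, and each was matched by its gene symbol. The callus came from C57BL/6 mice with a femoral fracture, and was collected on day 7, day 10 or day 14 after fracture. The labels give the treatment as none, and the study's methods describe a pinned fracture with buprenorphine for pain. Muscle and marrow were removed, the callus was digested with collagenase, and live cells that did not stain for CD45, CD31 or TER119 were sorted, a gate meant to keep mesenchymal cells and remove blood and endothelial cells. There was 1 library for each of the 3 days, so no difference below has a replicate check and none was tested. The age of the mice and how many were pooled in a library are not given in the sources used here. The 95% intervals cover counting error only, and a difference between days cannot be told apart from a difference between libraries.

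Each PDGF is a dimer of ligand chains that brings 2 receptor tyrosine kinases together. The A and C chains act mainly through the receptor encoded by Pdgfra, the B chain binds both receptors, and the D chain acts mainly through the receptor encoded by Pdgfrb. The C and D chains are secreted in a latent form and need proteolytic cleavage before they bind. In bone and its vessels, PDGF-B is best known as an endothelial signal that draws Pdgfrb-bearing pericytes to capillaries, and both receptors mark mesenchymal stromal cells.

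The family was described in Ptprc-negative cells, those with 0 UMIs of the gene for CD45. A UMI is the molecular tag by which each captured mRNA molecule is counted once. A cell was called high for a marker when it held at least 5 UMIs and at least 1000 CPM of it, where CPM is the UMIs of a gene per 1000000 UMIs, and the groups below hold cells high for exactly 1 of 5 markers. The markers were Rgs5, a regulator of G protein signalling found in pericytes, Aspn, the matrix protein asporin of osteoprogenitors, Cnmd, the cartilage protein chondromodulin, Col10a1, the collagen of hypertrophic chondrocytes, and Ifitm5, a membrane protein of mineralizing osteoblasts. The Rgs5-high group held 0 cells on day 7, 46 on day 10 and 127 on day 14. The Aspn-high group held 22, 1585 and 3549 cells on the same days, and the Cnmd-high group 56, 2314 and 1479. The Col10a1-high group held 10, 519 and 1626 cells and the Ifitm5-high group 1, 72 and 240. Groups of fewer than 20 cells were given no ratio, which leaves day 7 with the Aspn-high and Cnmd-high groups.

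The day 7 library stood apart from its label. Of 7017 cells that passed the quality limits on that day only 447, or 6.37%, were Ptprc-negative, against 6587 of 6593 on day 10 and 9680 of 9853 on day 14. In the day 7 library 6248 cells were neutrophil-type, with at least 1000 CPM of the neutrophil gene S100a8, although the gate should have removed them. Pericyte and osteoblast markers fitted the names of the Rgs5-high and Ifitm5-high groups on days 10 and 14, while the Col10a1-high group and the day 7 groups were more mixed. Rgs5-high cells carried the pericyte genes Notch3 (370.2 CPM on day 10 and 404 CPM on day 14) and Mcam (388 and 306 CPM), the smooth muscle gene Myh11 (186 and 287 CPM) and 0 UMIs of the endothelial genes Cdh5 and Kdr. The endothelial genes Emcn (58.7 and 24.5 CPM) and Pecam1 (2 and 7 UMIs) were present in them, and the 4 endothelial genes summed to 62.0 and 29.7 CPM against 0.788 to 4.61 CPM in the other 4 groups on those days. The part of this in the Rgs5-high values was not tested. Ifitm5-high cells carried the osteoblast gene Bglap at 8512 and 3555 CPM. Col10a1-high cells summed to 34554 and 28460 CPM of the 4 hypertrophic genes on days 10 and 14. They also held 34125 and 20451 CPM of the 6 osteoblast genes. Day 7 Cnmd-high cells held 63906 CPM of the 6 chondrocyte genes and 22016 CPM of the osteoblast genes. Day 7 Aspn-high cells held 1940 CPM of the 5 neutrophil genes. The 3 libraries shared 29 to 42 cell barcodes in each pair, against 8801 barcodes in the smallest library.

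Positions are given on the mm10 build from GENCODE M21. Pdgfra lies at chr5:75152292-75198215 on the plus strand and Pdgfa at chr5:138976014-138997370 on the minus strand. Pdgfb lies at chr15:79995874-80014977 (minus), Pdgfc at chr3:81036416-81214040 (plus) and Pdgfd at chr9:6168584-6378850 (plus). Pdgfa, Pdgfb, Pdgfc, Pdgfd and Pdgfra each overlap an annotated gene on the opposite strand, and Pdgfrb overlaps none. Promoter sequence was matched in RefSeq (GRCm38.p6) for 4 of the 6 genes, as 250 bases before to 50 bases after an annotated start. The promoters of Pdgfra, Pdgfa and Pdgfd are shown because the results below turn on how these members differ along Ifitm5 and Aspn. They run 5′ to 3′ on the strand of the gene, and capitals mark motif matches on either strand. The TATA motif searched was TATAAA. The GC box searched was GGGCGG, and in the Pdgfa window shown it lies on the strand opposite to the gene. The CCAAT motif, and the Runx motif searched as TGTGGT, had no match in these windows.
Pdgfra (chr5:75152001-75152300, plus strand): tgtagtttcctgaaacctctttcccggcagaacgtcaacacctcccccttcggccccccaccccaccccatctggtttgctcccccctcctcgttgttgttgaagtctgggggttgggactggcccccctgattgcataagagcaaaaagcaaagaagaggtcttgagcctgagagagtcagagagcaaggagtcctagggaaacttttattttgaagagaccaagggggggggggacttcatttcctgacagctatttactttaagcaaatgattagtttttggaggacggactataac
Pdgfa (chr5:138994895-138995194, minus strand): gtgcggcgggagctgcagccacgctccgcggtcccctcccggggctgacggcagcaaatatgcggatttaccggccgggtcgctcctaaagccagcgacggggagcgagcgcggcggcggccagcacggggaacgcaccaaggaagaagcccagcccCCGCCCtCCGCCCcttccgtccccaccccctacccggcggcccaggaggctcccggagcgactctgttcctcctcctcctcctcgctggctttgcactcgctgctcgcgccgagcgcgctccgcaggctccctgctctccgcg
Pdgfd (chr9:6168236-6168535, plus strand): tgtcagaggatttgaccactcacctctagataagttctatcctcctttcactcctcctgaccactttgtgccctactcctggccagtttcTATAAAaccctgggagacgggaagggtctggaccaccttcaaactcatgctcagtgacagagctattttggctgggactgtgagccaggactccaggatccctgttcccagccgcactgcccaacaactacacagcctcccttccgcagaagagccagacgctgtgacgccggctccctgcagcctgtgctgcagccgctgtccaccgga
The Pdgfa window, which belongs to a start inside the annotated gene, holds 2 GC boxes and is 73.3% G or C, against a mean of 53.8% over 32851 promoters of the same length, of which 35.7% hold that motif. A second Pdgfa window (chr5:138994232-138994531) was matched and is not shown. It is 67% G or C and holds 1 GC box, on the strand of the gene. The Pdgfd window holds 1 TATAAA, found in 13.6% of all promoters, and is 56.7% G or C. The Pdgfra window holds none of the 4 motifs and is 51% G or C. These matches describe letters only, and Pdgfb and Pdgfrb were not matched.

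The receptors divided the callus into 3 patterns. Pdgfrb was by far the more abundant receptor transcript in Rgs5-high cells, Pdgfra was almost the only receptor transcript in Ifitm5-high cells, and Aspn-high cells held both. Chondrocyte groups held little of either. Each molecule yields at most 1 UMI here whatever its length, so levels of the receptors are compared as UMIs without scaling to length, although capture may still differ between genes.

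Pdgfrb, the PDGF receptor of pericytes and smooth muscle, is encoded at chr18:61045150-61085061 on the plus strand. It stood at 517 CPM (95% interval 462 to 577) in Rgs5-high cells on day 10 and at 479 CPM (443 to 518) on day 14. In Aspn-high cells it stood at 107 CPM on day 7, 98.6 on day 10 and 88.5 on day 14. In Col10a1-high cells it was 36.0 CPM on day 10 and 26.2 on day 14. All Rgs5-high intervals lay above those of every other group, and the Rgs5-high level was 5.24 times the Aspn-high level on day 10 (4.65 to 5.90) and 5.42 times on day 14 (4.98 to 5.88). Cnmd-high cells held 11.0, 17.5 and 19.7 CPM on days 7, 10 and 14. Ifitm5-high cells held the lowest Pdgfrb of the 5 groups, 4.73 CPM on day 10 from 6 UMIs and 3.98 CPM on day 14 from 15 UMIs. Their level was 0.0479 of the Aspn-high level on day 10 (0.0176 to 0.104) and 0.0449 on day 14 (0.0251 to 0.0742).

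Pdgfra, the receptor most used to mark mesenchymal progenitors, gave a different order. Ifitm5-high cells were highest, at 98.5 CPM (82.0 to 117) on day 10 and 80.0 CPM (71.3 to 89.6) on day 14. Aspn-high cells followed at 73.3 CPM on day 7, 63.6 on day 10 and 66.5 on day 14. The Ifitm5-high level was 1.55 times the Aspn-high level on day 10 (1.28 to 1.86) and 1.20 times on day 14 (1.07 to 1.35), so the distance between these neighbours was small. Col10a1-high cells held 22.9 and 18.8 CPM on days 10 and 14. Cnmd-high cells held 9.29, 13.7 and 17.0 CPM on days 7, 10 and 14, and on day 14 their interval overlapped that of Col10a1-high cells. Rgs5-high cells were lowest, with 3 UMIs (4.89 CPM) on day 10 and 9 UMIs (6.69 CPM) on day 14. The day 10 Rgs5-high value was 1.10 CPM with 2000 CPM needed for high and 17.1 CPM with no upper limit on genes, the latter within the range of the Cnmd-high levels, and the Pdgfra share given below was then 0.233% and 3.25%. Aspn-high over Cnmd-high Pdgfra was 7.89-fold on day 7, 4.66-fold on day 10 and 3.91-fold on day 14. Neutrophil-type cells of the day 14 library, which should lack the receptors, held Pdgfra at 12.2 CPM (7.32 to 19.0) and Pdgfrb at 45.5 CPM (35.5 to 57.3). The chondrocyte levels of that day are not separated from these levels, which are called background here and below. This background is no lower limit of the library, since Ifitm5-high cells held Pdgfrb at 3.98 CPM (2.23 to 6.56). Its 71 Pdgfrb UMIs lay in 23 of 136 cells, with up to 10 in 1 cell, and the Poisson intervals ignore such unevenness. Expression of the receptors in the chondrocyte groups of day 14 is therefore neither shown nor excluded.

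**Figure D1:**
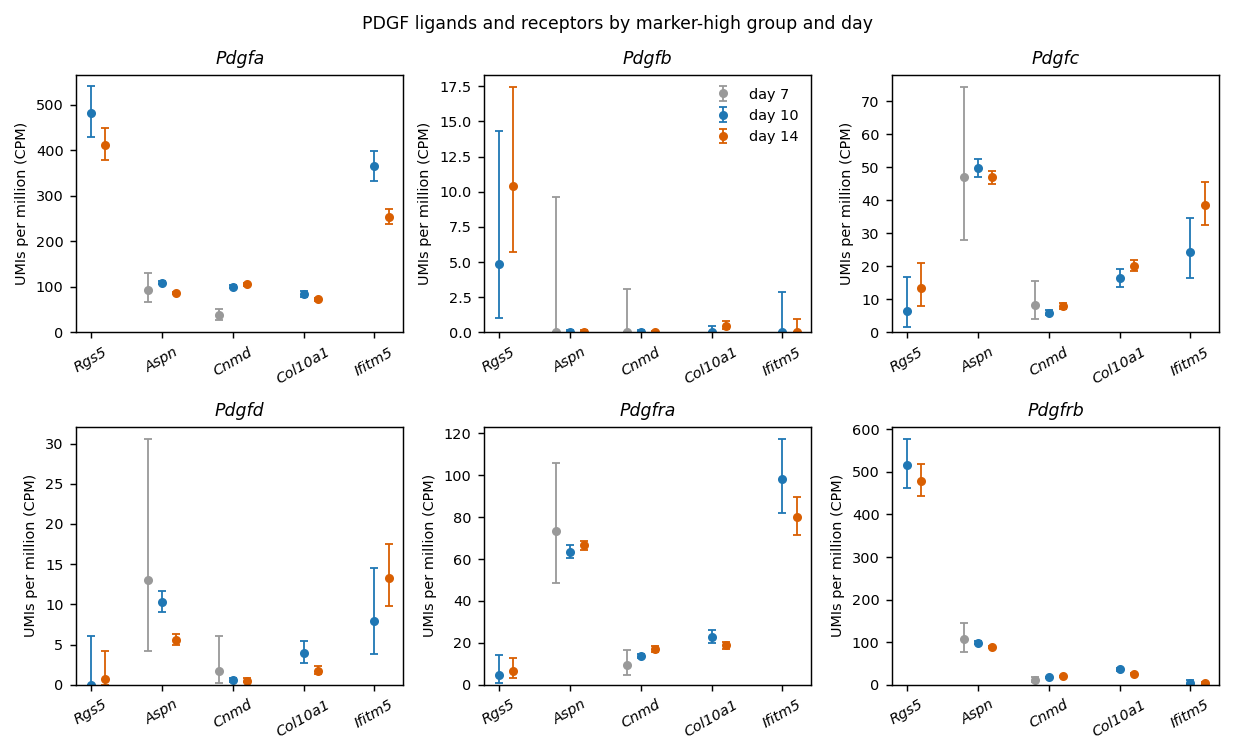
Each panel plots 1 member in CPM of UMIs (linear axis from 0) against the 5 marker-high groups, with day 7, 10 and 14 as grey, blue and orange points and bars for the 95% Poisson interval of the UMI count; groups of fewer than 20 cells are left out. Pdgfrb stands at 479 to 517 CPM in Rgs5-high cells and at 3.98 to 4.73 CPM in Ifitm5-high cells, while Pdgfra is at 80.0 to 98.5 CPM in Ifitm5-high cells and at 4.89 to 6.69 CPM in Rgs5-high cells.

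The balance of the receptors, given as the share of Pdgfra among all Pdgfra and Pdgfrb UMIs, differed little between days within a group. It was 0.938% (exact binomial interval 0.194% to 2.72%) on day 10 and 1.38% (0.631% to 2.60%) on day 14 in Rgs5-high cells. It was 95.4% (90.3% to 98.3%) and 95.3% (92.3% to 97.3%) in Ifitm5-high cells. The other groups sat between these extremes and close to each other. Aspn-high cells stood at 40.6%, 39.2% and 42.9% on days 7, 10 and 14, and Cnmd-high cells at 45.8%, 43.8% and 46.3%. The Aspn-high intervals of day 10 (37.7% to 40.8%) and day 14 (41.8% to 44.0%) did not overlap. Col10a1-high cells stood at 38.9% on day 10 and 41.9% on day 14. Over all Ptprc-negative cells the share was 42.0%, 40.2% and 41.1% on the 3 days.

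**Figure D2:**
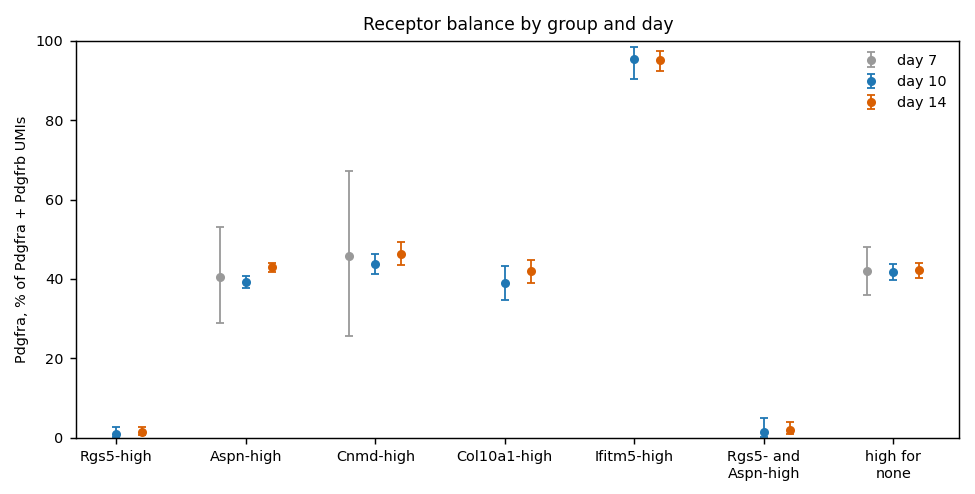
The vertical axis is Pdgfra as a percentage of Pdgfra plus Pdgfrb UMIs for each group on the horizontal axis, on day 7 (grey), day 10 (blue) and day 14 (orange), with exact 95% binomial intervals. Rgs5-high cells sit at 0.938% to 1.38%, Ifitm5-high cells at 95.3% to 95.4%, cells high for both Rgs5 and Aspn at 1.41% to 1.99%, and all other points between 38.9% and 46.3%.

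Cells high for both Rgs5 and Aspn, 28 on day 10 and 79 on day 14, were kept apart from the groups above. They held Pdgfrb at 381 CPM on day 10 and 504 CPM on day 14, and Pdgfra at 5.45 and 10.2 CPM. Their Pdgfra share was 1.41% and 1.99%, near that of Rgs5-high cells and far from that of Aspn-high cells. On day 14 they summed to 12437 CPM of the 6 pericyte markers, against 11627 CPM in Rgs5-high cells and 86.6 CPM in Aspn-high cells. Their summed level of the 5 osteoprogenitor markers on that day was 3873 CPM, against 11741 CPM in Aspn-high cells.

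The receptors were next set against each other per cell. Each cell was thinned at random to 5000 UMIs so that depth was equal, and shallower cells were left out: 3 and 16 Rgs5-high, 52 and 235 Aspn-high, and 5 and 24 Ifitm5-high cells on days 10 and 14. In Rgs5-high cells 83.7% on day 10 and 85.6% on day 14 showed Pdgfrb without Pdgfra, and no cell showed Pdgfra alone. In Ifitm5-high cells the pattern was the opposite, with Pdgfra alone in 40.3% and 36.1% of cells and Pdgfrb alone in 1.49% and 0.463%. Aspn-high cells were mixed. Pdgfrb alone was seen in 25.0% of them on day 10 and 23.1% on day 14, Pdgfra alone in 15.3% and 16.3%, both in 9.85% and 11.2%, and neither in 49.8% and 49.4%.

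A cell that shows neither or only 1 receptor at this depth may hold the other, so the joint share was set against the product of the separate shares. In Aspn-high cells the observed number with both was 1.12 times that product on day 10 (151 cells against 134) and 1.19 times on day 14 (370 against 312). The mean Pdgfrb count was 0.446 UMIs in the 2404 day 14 Aspn-high cells without Pdgfra, 0.583 in the 695 cells with 1 UMI of it, 0.575 in the 160 with 2 and 0.691 in the 55 with 3 or more. The transcripts were therefore found together slightly more often than the product of their shares, and neither was confined to cells that lacked the other. Across single Aspn-high cells Pearson's r between the thinned counts was 0.0683 on day 10 (n = 1533 cells) and 0.0769 on day 14 (n = 3314 cells), a weak relation between sparse counts of 1 library each.

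Cells that should lack both receptors gave a floor for these shares. In neutrophil-type cells of the day 7 library 0.229% of 3051 cells thinned to the same depth showed Pdgfra and 0.557% Pdgfrb, with a median of 8554 UMIs before thinning. The Aspn-high shares, 25.1% and 27.5% for Pdgfra and 34.9% and 34.3% for Pdgfrb on days 10 and 14 (medians of 15427 and 14884.5 UMIs), were far above that floor. Before thinning they were 52.4% and 52.0% for Pdgfra and 66.4% and 63.2% for Pdgfrb. The day 10 library held only 4 neutrophil-type cells and gave no floor of its own. The 136 neutrophil-type cells of the day 14 library were not clean, with 5923 CPM of the bone gene Ibsp, and of the 109 deep enough 6.42% showed Pdgfra and 12.8% Pdgfrb. These day 14 shares are a comparison and no lower limit of the library, since Pdgfrb alone was seen in 0.463% of Ifitm5-high cells. Cnmd-high cells on day 14 showed Pdgfra in 8.29% and Pdgfrb in 10.5%, and Col10a1-high cells in 9.59% and 12.1%. These chondrocyte shares did not clear the day 14 floor and are not read as expression. The same holds for Pdgfra in Rgs5-high cells and Pdgfrb in Ifitm5-high cells. Free RNA and doublets were not told apart in these cells, and the part of either was not tested.

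**Figure D3:**
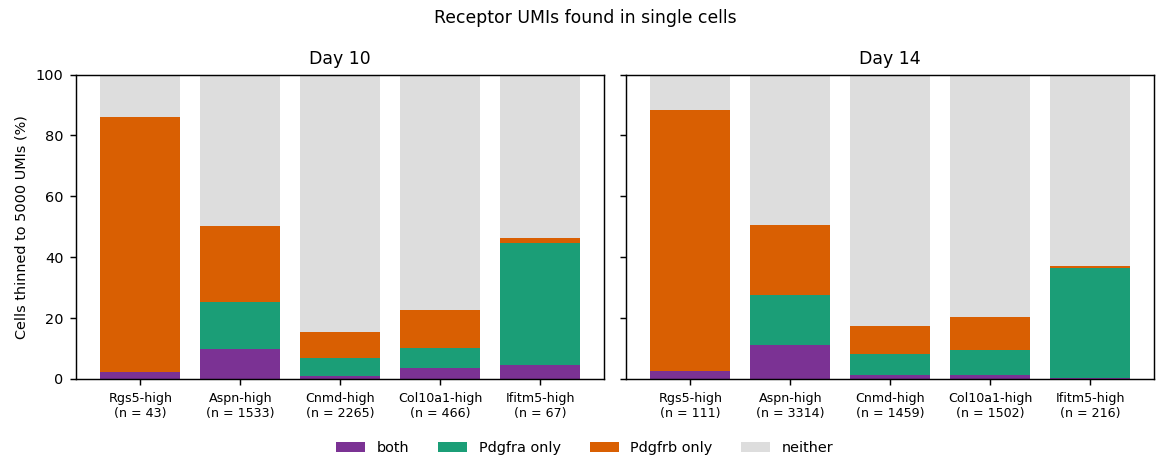
Stacked bars give, for cells of each group thinned to 5000 UMIs on day 10 (left) and day 14 (right), the percentage with UMIs of both receptors (purple), Pdgfra only (green), Pdgfrb only (orange) or neither (grey), with the number of cells under each bar. Rgs5-high bars are almost wholly orange (83.7% and 85.6%), Ifitm5-high bars hold green (40.3% and 36.1%) with hardly any orange, and Aspn-high bars hold all 4 classes.

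The receptor balance was also followed along the level of each marker, in cells not high for any of the other 4 markers. Bins under 1000 CPM hold cells high for none of the markers, so bins can differ in cell type as well as in marker level, and the part of each was not tested. Along Ifitm5 the receptors ran in opposite directions. On day 14 Pdgfrb stood at 72.7 CPM in cells under 250 CPM of Ifitm5, 16.2 CPM in cells from 250 to 1000, 6.48 CPM from 1000 to 2500 and 0 UMIs in the 76 cells from 2500 to 5000. Pdgfra over the same 4 bins was 46.6, 66.2, 82.1 and 80.1 CPM. The Pdgfra share of receptor UMIs was 39.1%, 80.3%, 92.7% and 100% (96.4% to 100%) in turn. On day 10 Pdgfra was 53.7, 52.1 and 111 CPM over the first 3 bins and Pdgfrb 81.0, 13.9 and 6.37 CPM. The share on that day was 39.9% under 250 CPM, 79.0% from 250 to 1000 and 94.6% from 1000 to 2500. The shift was thus already large in cells with Ifitm5 below the 1000 CPM that defined the group, 88 cells on day 10 and 182 on day 14.

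Along Cnmd both receptors were lower where the marker was higher, and so was Pdgfc. On day 10 Pdgfra was 59.1 CPM in cells under 250 CPM of Cnmd and 11.8 CPM in cells from 2500 to 5000, and Pdgfrb was 89.8 and 15.8 CPM. The Pdgfra share in those bins was 39.7% and 42.8%, so the receptors were lower together. At 5000 CPM or more they were a little higher again, at 19.4 CPM for Pdgfra and 20.3 CPM for Pdgfrb. Day 14 gave shares of 40.1% under 250 CPM and 43.8% from 2500 to 5000. In the bin from 250 to 1000 CPM of Cnmd the share was 52.5% on day 10 (47.0% to 57.9%) and 52.1% on day 14 (47.5% to 56.7%), and in the next bin it was 42.9% and 50.3%. On day 14 the receptor levels from 1000 CPM of Cnmd on were no higher than 22.4 CPM, near or below the neutrophil-type levels of that library.

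Pdgfa, whose product signals through the Pdgfra receptor, was the main ligand transcript in every group, at 61.0% to 97.7% of all ligand UMIs in groups of at least 20 cells. It was highest in Rgs5-high cells, at 483 CPM (429 to 541) on day 10 and 412 CPM (379 to 448) on day 14. Ifitm5-high cells held 365 CPM (332 to 399) and 254 CPM (238 to 271). The other groups were at a far lower level on both days, between 72.7 CPM in Col10a1-high cells on day 14 and 109.7 CPM in Aspn-high cells on day 10. Rgs5-high over Ifitm5-high Pdgfa was 1.32-fold on day 10 (1.14 to 1.53) and 1.62-fold on day 14 (1.46 to 1.80). The Pdgfa level of neutrophil-type cells was 2.13 CPM on day 7 and 65.9 CPM on day 14, the latter near the Col10a1-high level of that day. Ifitm5-high cells thus held transcripts of the A chain and of its receptor, while Rgs5-high cells held much Pdgfa and hardly any Pdgfra. After thinning, Pdgfa was seen in 68.7% and 58.3% of Ifitm5-high cells on days 10 and 14, against 0.656% of neutrophil-type cells on day 7 and 20.2% on day 14. It was seen in 23.6% and 21.2% of Col10a1-high cells, which on day 14 did not clear the floor. The share of Ifitm5-high cells with Pdgfa and Pdgfra together was 29.9% and 19.0%, which is 0.971 and 0.890 times the product of the separate shares. At 2000 UMIs the ratio was 0.923 and 1.10, on the other side of 1 on day 14.

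The counts of Pdgfa were uneven among cells. A day 10 Aspn-high cell held 60 UMIs of it before thinning, while 935 of the 1585 cells of that group held any. Along Aspn, in cells not high for the other markers, Pdgfa was lower at each step. The bins under 1000 CPM of Aspn hold cells high for none of the markers, which differ in type. On day 10 cells high for none summed to 35042 CPM of the osteoblast genes and 16989 CPM of the chondrocyte genes. Aspn-high cells of that day held 3729 and 2974 CPM. The part of cell type in these steps was not tested. On day 10 it was 199 CPM in cells under 250 CPM of Aspn, 185 from 250 to 1000, 156 from 1000 to 2500, 105 from 2500 to 5000 and 67.0 at 5000 or more. On day 14 the same bins held 200.4, 189.6, 119.7, 84.6 and 69.3 CPM. The order was the same in both libraries. The highest bin of day 14 lay within the neutrophil-type interval of that library (53.8 to 80.0 CPM), so it is not separated from background. The receptor balance had no such trend along Aspn on these days and stayed between 36.1% and 46.4% Pdgfra.

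Pdgfc, which encodes the latent C chain, followed another order. Aspn-high cells held 47.1 CPM on day 7, 49.7 on day 10 and 47.0 on day 14, a level that the intervals do not separate between days. Ifitm5-high cells held 24.4 and 38.7 CPM, Col10a1-high cells 16.4 and 20.2 CPM and Rgs5-high cells 6.52 and 13.4 CPM on days 10 and 14. Cnmd-high cells held 8.44, 5.92 and 7.95 CPM on days 7, 10 and 14. Neutrophil-type cells held 1.35 CPM on day 7 and 19.2 CPM (13.0 to 27.4) on day 14, so the Cnmd-high, Rgs5-high and Col10a1-high levels of day 14 are not separated from background, and those of Aspn-high and Ifitm5-high cells lay above it. The Rgs5-high value of day 10 rests on 4 UMIs, and it was 29.3 CPM when 500 CPM was enough for high. In Aspn-high cells Pdgfc and Pdgfra occurred in the same thinned cell 1.04 times as often as the product of their shares on day 10 and 1.17 times on day 14. At 2000 UMIs these ratios were 1.14 and 0.972, so the day 14 value turned to the other side of 1.

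Pdgfd, which encodes the latent D chain, was rare. It stood at 13.1 CPM on day 7 (5 UMIs), 10.2 CPM on day 10 (248 UMIs) and 5.60 CPM on day 14 (281 UMIs) in Aspn-high cells. Ifitm5-high cells held 7.88 CPM on day 10 (10 UMIs) and 13.3 CPM on day 14 (50 UMIs). Rgs5-high cells, which held the highest level of the D chain receptor, had 0 UMIs on day 10, with an upper limit of 6.02 CPM, and 1 UMI on day 14. Cnmd-high cells had 0.594 and 0.519 CPM on days 10 and 14. Along Aspn, the highest bin held the most Pdgfd on both days. On day 10 cells under 250 CPM of Aspn held 1.62 CPM of Pdgfd and cells at 5000 CPM or more held 20.3 CPM (17.2 to 23.8). On day 14 the corresponding levels were 4.04 and 8.64 CPM, with the lowest level, 2.25 CPM, from 250 to 1000. Neutrophil-type cells of the day 14 library held 6 UMIs of Pdgfd in 2 of 136 cells, with up to 4 in 1 cell, or 3.84 CPM (1.41 to 8.36). The interval of the highest Aspn bin on day 14 (7.42 to 10.0) overlaps that range. The Aspn-high level and all Aspn bins of that day are thus not separated from background, while the Ifitm5-high level lay above it. That background rests on few UMIs, and Cnmd-high cells of the same library lay below all of these levels, at 0.519 CPM (0.297 to 0.843). On day 10 Pdgfa and Pdgfd differed in opposite directions between the lowest and the highest bins of Aspn. Day 14 gave the same directions, but with Pdgfd not separated from background.

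**Figure D4:**
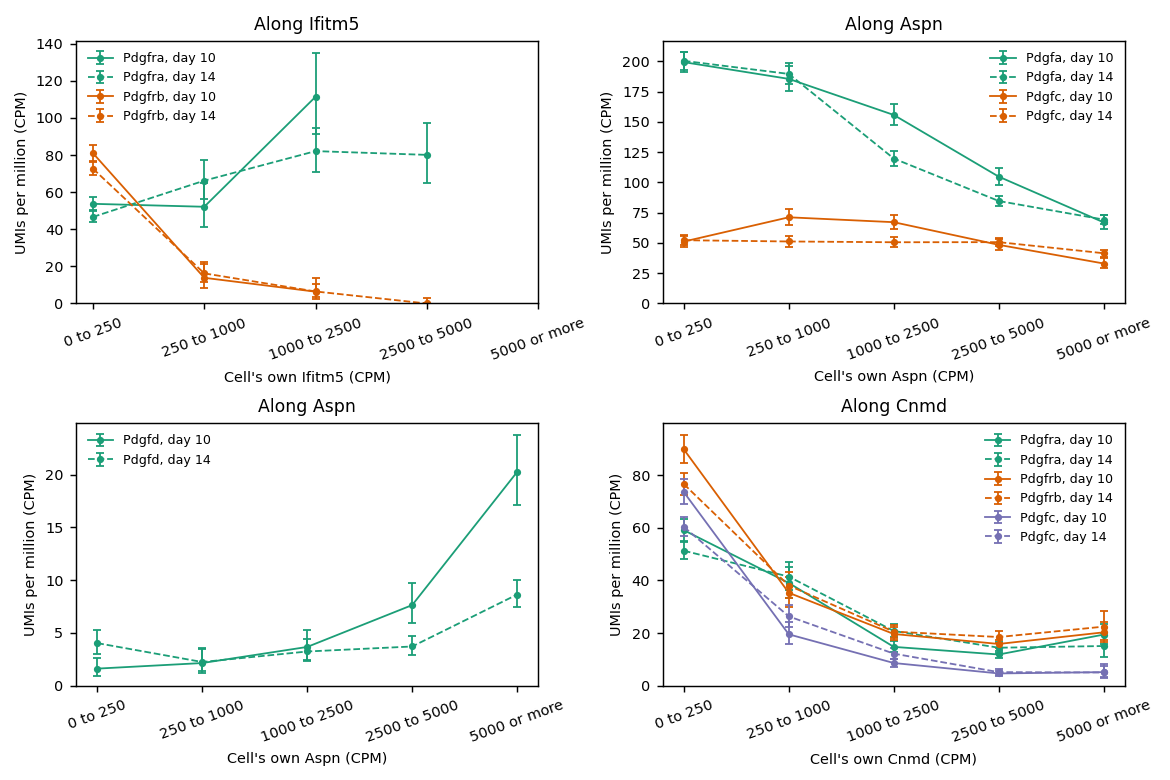
Each panel gives the level in CPM of the named members in cells not high for the other 4 markers, in bins of the cell's own level of Ifitm5, Aspn or Cnmd in CPM, on day 10 (solid lines) and day 14 (dashed lines), with 95% Poisson intervals and linear axes from 0. Pdgfrb drops from 72.7 to 0 CPM along Ifitm5 on day 14 while Pdgfra goes from 46.6 to 80.1 CPM, Pdgfa drops along Aspn where Pdgfd climbs to 20.3 CPM on day 10, and both receptors and Pdgfc are low from 1000 CPM of Cnmd on.

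Pdgfb, the ligand of pericyte recruitment, was close to undetected. Rgs5-high cells held 3 UMIs in 3 of 46 cells on day 10 and 14 UMIs in 9 of 127 cells on day 14, or 4.89 and 10.4 CPM. With 500 CPM enough for high these levels were 18.3 and 16.2 CPM. Aspn-high cells held 0 UMIs on day 10 and 2 on day 14, and Ifitm5-high cells 0 on both days. Col10a1-high cells held 13 UMIs on day 14, each in a different cell, which is 0.483 CPM. All Ptprc-negative cells held 1, 11 and 36 UMIs on days 7, 10 and 14. Endothelial cells, the best known source of this ligand, were hardly found after the sort. Of cells within the quality limits just 1 in the 3 libraries held at least 2 UMIs of each of Pecam1 and Cdh5. Cells with fewer UMIs of either gene were not counted.

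Each group was also compared with the other 4 pooled, within a library, over all genes with at least 10 CPM on either side. A gene was counted when it lay at least 2-fold away, without a test. Of all genes tested 30.2% were past 2-fold in Rgs5-high cells on day 10, 18.4% in Aspn-high, 17.1% in Cnmd-high, 19.1% in Col10a1-high and 22% in Ifitm5-high cells. On day 14 these shares were 25.5%, 18.7%, 15.6%, 20.5% and 20.9%. Over these 10 comparisons 20.9% of all genes were past 2-fold. Groups are not independent here, since each is part of the pool for the others. A member at 10 CPM on 1 side only could enter the comparison through that side alone, so the counts of members describe these sums and support nothing.

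Aspn-high cells held Pdgfc, Pdgfra and Pdgfrb at least 2-fold higher on both days, where 12.9% and 12.8% of all genes were higher. Pdgfd entered on day 10 only because Aspn-high cells reached 10.2 CPM, and its log2 ratio was 3.01. Cnmd-high cells held Pdgfc, Pdgfra and Pdgfrb lower on both days, where 13.3% and 11.8% of all genes were lower, at levels that on day 14 were not separated from background. The median log2 ratio of all genes was 0.27 and 0.26 in the Aspn-high comparison on days 10 and 14 and -0.27 and -0.24 in the Cnmd-high comparison. Rgs5-high cells held Pdgfa and Pdgfrb higher and Pdgfc and Pdgfra lower on both days, with Pdgfb higher too on day 14, when it entered only through its 10.4 CPM in Rgs5-high cells. All genes there were higher in 18.2% and 15.2% and lower in 12% and 10.3%. Ifitm5-high cells held Pdgfa and Pdgfra higher and Pdgfrb lower on day 10, with log2 ratios of 1.80, 1.72 and -3.35. On day 14 Pdgfa was higher and Pdgfrb lower, Pdgfd entered only through its 13.3 CPM in Ifitm5-high cells, and Pdgfra, with a log2 ratio of 1.00 when rounded, lay just short of 2-fold. The background there was 6.07% and 4.79% higher and 15.9% and 16.1% lower. Col10a1-high cells held 0 of 4 tested members past 2-fold on day 10 and Pdgfra and Pdgfrb lower on day 14, where 14.4% of all genes were lower. Those day 14 levels were not separated from background.

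Between day 10 and day 14 the members differed little within a group. In Aspn-high cells 0 of 5 tested members passed 2-fold, against 1.46% of all genes. Pdgfd differed most in that group, with a log2 ratio of day 14 over day 10 of -0.87 (-1.12 to -0.62), and Pdgfa stood at -0.34 (-0.41 to -0.27). The day 14 level of Pdgfd is not separated from background. In Ifitm5-high cells Pdgfa was -0.52 (-0.68 to -0.36) and Pdgfc 0.66 (0.10 to 1.27), and 0 of 4 passed against 4.13% of all genes. Cnmd-high cells (0 of 3, background 1.36%) had small differences, up to 0.43 for Pdgfc. Col10a1-high cells (0 of 4, background 1.25%) reached -0.46 for Pdgfrb among tested members. In both of these groups the day 14 levels of Pdgfc and of the receptors are not separated from the neutrophil-type background. In Rgs5-high cells 2 of 4 tested members passed 2-fold, Pdgfb and Pdgfc, against 10.6% of all genes. Both rest on 3 or 4 UMIs on day 10, and their intervals include 0 on the log2 scale. Between day 7 and day 10 Pdgfa in Cnmd-high cells stood apart, at 38.8 CPM (28.4 to 51.8) from 56 cells against 100.5 CPM. The day 7 Cnmd-high cells carried 1912 CPM of the 5 neutrophil markers against 57.9 CPM on day 10, and the part of this in the difference was not tested.

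Cycling cells were those with at least 2 UMIs over Mki67, Top2a and Ccnb2, set against cells with none. Among Aspn-high cells there were 183 on day 10 and 171 on day 14. Pdgfa was higher in them, by 0.25 on the log2 scale on day 10 (0.10 to 0.41) and 0.45 on day 14 (0.28 to 0.61), and Pdgfd was lower, at -0.82 (-1.54 to -0.17) and -1.09 (-2.32 to -0.09). On day 14 both Pdgfd levels are not separated from background. Among Cnmd-high cells Pdgfa had the opposite sign, -0.26 (-0.44 to -0.08) in 150 cycling cells on day 10 and -0.43 (-0.67 to -0.19) in 86 on day 14. The receptors gave no difference of the same sign on both days that excluded 0 in either group. Cycling Aspn-high cells were deeper, with medians of 17677 and 17614 UMIs against 14830 and 14032, and the part of depth was not tested.

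The genes that process or bind PDGF ligands were followed as a list of 8 (Furin, Plat, Plau, St14, Sparc, A2m, Nrp1, Lrp1). Over the 10 group comparisons of days 10 and 14 the list passed 2-fold in 17 of 53 tested, or 32.1%, against 20.9% of all genes. As for the members, a gene could enter only through the side where it is high, so these counts support nothing. The genes named below are those farthest from 1-fold. Plat, whose product tissue plasminogen activator cleaves the latent C chain, tracked the groups most closely. It was 61.0 and 56.9 CPM in Aspn-high cells and 137 and 83.2 CPM in Rgs5-high cells on days 10 and 14, and between 0.922 and 3.45 CPM in Cnmd-high, Col10a1-high and Ifitm5-high cells. Plau, whose product urokinase can activate the D chain, was 39.1 and 17.8 CPM in Rgs5-high cells. Nrp1, a co-receptor of several growth factors, was 236 and 242 CPM in Rgs5-high cells, with log2 ratios over the other groups of 1.66 and 1.78. Sparc, a matrix protein that binds PDGF, was the highest in level and stood 1.11 lower on the log2 scale in Rgs5-high cells on day 14 (8456 CPM against 18201 CPM).

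The list of receptor signalling and turnover held 14 genes (Pik3r1, Plcg1, Shc1, Grb2, Gab1, Ptpn11, Rasa1, Nck1, Crk, Cbl, Ptprj, Ptpn1, Ptpn2, Slc9a3r1). It passed 2-fold in 23 of 124 tested, or 18.5%, below the 20.9% of all genes, with the same limits on entry and on the choice of named genes. Slc9a3r1, a scaffold that binds the tail of the Pdgfrb receptor, was 21.2 and 16.4 CPM in Rgs5-high cells and 1.18 and 1.23 CPM in the other groups on days 10 and 14. It entered this comparison only through its level in Rgs5-high cells. Pik3r1, the regulatory subunit of phosphoinositide 3-kinase, was higher in Rgs5-high cells by 1.72 and 1.83 on the log2 scale and in Col10a1-high cells by 1.54 and 1.38. Gab1, an adaptor of receptor tyrosine kinases, was higher in Col10a1-high cells by 1.83 and 1.69 and lower in Aspn-high cells, at -1.04 and -1.11. Ptprj, a phosphatase that acts on the PDGF receptors, was 22.1 and 26.8 CPM in Ifitm5-high cells against 2.55 and 2.88 CPM in the other groups. It likewise entered only through its level in Ifitm5-high cells.

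Genes with patterns most like those of each member were ranked by Pearson's r of log2(CPM + 10) over the 12 sums of a group on a day with at least 20 cells, among 4346 genes that reached 50 CPM. These sums share libraries and groups, so r is a description. Pdgfrb was most like Peak1 (r = 0.995), Ebf1 (0.991) and Rock2 (0.986). Pdgfra was most like Elmo1 (0.963), Sorcs2 (0.958) and Ptprd (0.937). Ptprd also led for Pdgfd (0.920), followed by Pdgfra itself (0.915) and Rgs3 (0.907). Pdgfc was most like Cdh11 (0.921), Ebp (0.910) and Smim20 (0.910), and Pdgfa most like Hspb2 (0.945), Cox8a (0.933) and Lrrfip1 (0.920). For Pdgfb, which is near 0 outside Rgs5-high cells, the genes were Tspan15, Sncg and Inpp4b, all with r of at least 0.990. Among the members Pdgfc, Pdgfd and Pdgfra went together, with r of 0.867 to 0.915 between them, whereas r between Pdgfra and Pdgfrb was -0.38.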

How the data were processed

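The authors deposited, for each of 3 libraries, a matrix of UMI counts per gene and cell barcode, not normalized, with gene and barcode lists. The submitters' notes give Cell Ranger 3.0 and the mm10 build, the file headers give software version 3.1.0, and the methods of the study name a later version. Barcodes with 500 to 5000 genes, at most 10% mitochondrial and at most 5% hemoglobin UMIs were kept: 7017, 6593 and 9853 cells with 55187609, 113618580 and 154573230 UMIs on days 7, 10 and 14. No batch correction or doublet caller was applied. UMIs were summed over the cells of a group and divided by all its UMIs (CPM). Intervals are exact Poisson (levels) or exact binomial (Clopper-Pearson, for ratios and shares). In the 2-fold comparisons over all genes a count of 0 was replaced by 3 counts. With 1 library per day and cells not being replicates, no test was run. Cells were thinned without replacement (seed 1). Ratios and intervals were tested on simulated data for Aspn-high over Cnmd-high on day 14 (7489 genes, 200 of them changed by 2 on the log2 scale): the direction was right for 100% and 95.4% of intervals held the true value. The simulated sums were drawn from the Poisson model that the intervals assume, so this coverage was built in. They hold no unevenness between cells or libraries, so the run checks the code and not the intervals on these data. The genes, groups, lists and limits were chosen with earlier results of these data known. Named genes were the 6 members, the 5 markers, both pathway lists with the 4 genes of each list farthest from 1-fold, and the 3 genes most like each member. Alternatives were another threshold for high (500 or 2000 CPM), counting cells high for several markers in each group, a 5% mitochondrial limit, no upper limit on genes, keeping Ptprc-positive cells, CPM without the 50 genes with most UMIs, the mean of the cells' own CPM, thinning to 2000 UMIs and, added after seeing the data, leaving out cells with an S100a8 UMI. Python 3.11.15, numpy 2.4.6, scipy 1.17.1, pandas 2.3.3 and matplotlib 3.10.9 were used.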

Additional observations from a re-analysis of the deposited data

Results flagged for a closer look

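Ptprc-negative cells high for none of the 5 markers are in no group of the comparisons. On days 10 and 14 they held more Pdgfa than Aspn-high and cartilage-type cells. Pdgfa stood in them at 126 CPM on day 7, 193.9 CPM on day 10 and 196 CPM on day 14, and Pdgfc at 36.1, 58.9 and 51.7 CPM, above the neutrophil-type levels of 2.13 and 1.35 CPM on day 7 and 65.9 and 19.2 CPM on day 14. On day 7, 216 of these 351 cells had at least 1000 CPM of S100a8. The Pdgfa interval of the 351 cells (113.5 to 139.7 CPM) overlapped that of day 7 Aspn-high cells (66.0 to 130.5 CPM). It lay above that of day 7 Cnmd-high cells (28.4 to 51.8 CPM). Before thinning, 20.5% of the 351 cells held Pdgfa, against 68.2% of day 7 Aspn-high cells. With each cell weighing the same, Aspn-high cells held the more Pdgfa on that day. Cells high for both Rgs5 and Aspn, also outside the groups, held Pdgfrb at 381 CPM on day 10 and 504 CPM on day 14.

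The difference between day 10 and day 14 had opposite signs in different groups, each with an interval that excludes 0, and the difference between groups was not tested. Pdgfa was 0.068 in Cnmd-high cells (log2, day 14 over day 10) and -0.23 in Rgs5-high, -0.34 in Aspn-high, -0.21 in Col10a1-high and -0.52 in Ifitm5-high cells. Pdgfra was 0.32 in Cnmd-high and -0.28 in Col10a1-high cells. Pdgfrb was 0.17 in Cnmd-high, -0.16 in Aspn-high and -0.46 in Col10a1-high cells. The day 14 receptor levels of Cnmd-high and Col10a1-high cells, and Pdgfa in Col10a1-high cells, are not separated from background. These differences are therefore not read as changes of expression.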

How the results depend on the processing

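No log2 ratio changed sign under an alternative that could be computed, but ratios of cells with both receptors crossed 1 when cells were thinned to 2000 UMIs: from 1.13 to 0.510 in Rgs5-high cells on day 14 and, in Col10a1-high cells, from 2.20 to 0.965 on day 10 and from 0.980 to 1.68 on day 14. Pdgfrb in Rgs5-high over Aspn-high cells on day 14 (log2 ratio 2.44) stayed between 2.36 and 2.50. Pdgfra in Aspn-high over Cnmd-high cells on day 14 (1.97) was 1.74 when cells high for several markers counted in each group and 1.54 with each cell weighing the same. The Pdgfra share of receptor UMIs in Aspn-high cells on day 14 (42.9%) was 41.4% under each of those settings. Of 624 recomputed levels 502 stayed within the counting interval of the main value, as did 107 of 131 log2 ratios, 97 of 104 receptor shares and 4 of 10 ratios of cells with both receptors. Leaving out the 50 genes with most UMIs shifted all Ifitm5-high over Aspn-high log2 ratios by 0.27 on day 10 and 0.25 on day 14, and set Pdgfra in Ifitm5-high cells at 152 and 123 CPM. No replicate could be left out. No paired analysis was possible because each day has 1 library. Depth limits Pdgfb everywhere, Pdgfra in Rgs5-high and Pdgfrb in Ifitm5-high cells, where values rest on 15 UMIs or fewer.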

Other observations

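The cells high for none of the 5 markers were split by their level of Ibsp, the bone sialoprotein gene of osteoblasts and mineralizing cartilage, a split chosen after their values were seen and with S100a8-rich cells left out. On day 14 cells under 1000 CPM of Ibsp (589 cells) held Pdgfrb at 102 CPM and Pdgfra at 65.9 CPM, and cells at 10000 CPM or more (647 cells) held 33.8 and 35.0 CPM. On day 10 the values were 123 and 72.2 CPM in 450 cells against 34.7 and 35.5 CPM in 458 cells. The Pdgfra share of receptor UMIs was 36.9% and 50.6% in the low and high cells on day 10, and 39.2% and 50.9% on day 14. In cells from 1000 to 10000 CPM of Ibsp it was 42.7% on day 10 (237 cells) and 39.0% on day 14 (499 cells). The osteoblast gene Bglap was highest in these middle cells. From low to high Ibsp it stood at 9.02, 3419 and 87.1 CPM on day 10 and 576, 2667 and 357 CPM on day 14. The split thus does not order the cells by Bglap. The day 14 Pdgfrb level of the high cells lay below the neutrophil-type 45.5 CPM of that library and is not separated from background. Pdgfa in the low and high cells was 163 and 209 CPM on day 10 and 215 and 183 CPM on day 14, so its order turned between the libraries.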
